A study of Mus musculus with 24 samples.

Results

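Retinoic acid is the active form of vitamin A, and 9 genes that make it, break it down, carry it or answer to it were followed here in mouse lacrimal gland (LG) and in spheres of lacrimal gland stem cells (LGSCs). The 9 genes, of 52636 with an Ensembl identifier in the tables, were Rdh10, Dhrs3, Aldh1a1, Aldh1a2, Aldh1a3, Cyp26a1, Cyp26b1, Crabp2 and Rarb. They were a list of retinoid genes chosen by the levels of Dhrs3 and Cyp26a1 in the spheres, both of which had been seen to be higher at day 14 of culture, so every value at day 14 is given as a description with no test. The study sequenced poly-A RNA of LGSC spheres over time in culture and of embryonic and adult LG, all from C57BL/6 mice. Passage 2 spheres gave 2 libraries at day 5 and 3 at each of day 7, day 10 and day 14, and whole LG was sampled at E17.5, at E19.5 and in the adult (3 each), where E gives the embryonic day. These 20 libraries form the 7 groups compared. The spheres had been grown from dissociated adult LG of mice aged 6 to 8 weeks, in Matrigel and a serum-free medium with N2, B27, epidermal growth factor, FGF10, Wnt3A and the kinase inhibitor Y-27632, and such cultures were passaged every 7 days. All sphere groups shared this medium, and day 14 differed from day 7, by the labels, in the length of the culture alone. The age of the adult LG animals was not given in the labels. B27 is a supplement whose standard form holds a vitamin A ester, and the form used was not given in the sources used here. Of 24 samples listed, a day 5 replicate and the passage 6 and passage 20 samples were not analysed here. Nothing in the labels says whether replicates came from separate animals or cultures, so p-values measure the spread between these libraries only.

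Retinol is oxidised to retinaldehyde by Rdh10, and Dhrs3 turns retinaldehyde back into retinol. The retinaldehyde dehydrogenases Aldh1a1, Aldh1a2 and Aldh1a3 carry out the step to retinoic acid, which cannot be reversed, and the cytochromes Cyp26a1 and Cyp26b1 oxidise retinoic acid for removal. Crabp2 carries retinoic acid to nuclear receptors, dimers of a retinoic acid receptor and a retinoid X receptor, of which Rarb is a member and itself a classical target. Cyp26a1 and Dhrs3 are also known to be induced by retinoic acid, so that a rise of either is widely read as a feedback on its supply. In glands that form by budding, Aldh1a2 is best known from the mesenchyme around the epithelium.

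The response elements of these receptors are direct repeats of a short unit, and the promoters of the classical targets are shown because Cyp26a1 and Rarb carry such a repeat while their levels in these libraries differed. RefSeq windows (build GRCm38.p6) of 250 bases before to 50 bases after a start were held for 6 of the 9 genes. Each window was searched on both strands for the repeats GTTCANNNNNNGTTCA, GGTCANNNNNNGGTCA, GTTCANNNNNNGGTCA and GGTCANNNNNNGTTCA, the DR5 type, and for the same units with NNN between them, the DR2 type. A DR5 match was found for Cyp26a1 and Rarb, and none of the patterns was found for Dhrs3, Aldh1a1, Aldh1a2 or Cyp26b1 in these windows. A DR5 match was present in 0.247% and a DR2 match in 0.399% of all 32817 windows of this length. The 250 bases before the start are given 5′ to 3′ on the strand of the gene, with the DR5 match in capitals, for Cyp26a1 at chr19:37697558-37697807 (plus strand) and for Rarb at chr14:16575477-16575726 (minus strand).
Cyp26a1: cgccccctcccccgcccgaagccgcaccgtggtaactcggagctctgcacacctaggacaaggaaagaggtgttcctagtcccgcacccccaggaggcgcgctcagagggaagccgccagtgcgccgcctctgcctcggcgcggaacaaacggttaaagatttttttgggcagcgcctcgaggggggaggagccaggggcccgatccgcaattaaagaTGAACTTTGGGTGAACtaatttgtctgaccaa
Rarb: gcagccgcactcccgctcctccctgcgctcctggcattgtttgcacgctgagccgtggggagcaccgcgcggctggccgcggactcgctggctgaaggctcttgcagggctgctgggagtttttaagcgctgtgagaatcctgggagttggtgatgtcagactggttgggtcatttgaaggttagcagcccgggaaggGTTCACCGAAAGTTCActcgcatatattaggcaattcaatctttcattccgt
The Cyp26a1 repeat lay on the opposite strand, from base -32 to base -17 before the start, and the Rarb repeat lay on the strand of the gene, from base -52 to base -37. Both matches had the pattern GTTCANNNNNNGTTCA, which was held by 0.0762% of the windows. Dhrs3, which was picked together with Cyp26a1, had 3 windows. The 250 bases before the first of its starts, at chr4:144892577-144892826 (plus strand), hold no match.
Dhrs3: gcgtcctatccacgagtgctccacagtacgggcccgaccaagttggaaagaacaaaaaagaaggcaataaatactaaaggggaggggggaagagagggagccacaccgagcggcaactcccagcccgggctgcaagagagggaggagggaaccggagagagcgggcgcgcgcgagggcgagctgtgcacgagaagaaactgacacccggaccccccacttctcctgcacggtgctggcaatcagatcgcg
A match describes letters only and does not show that a receptor binds there.

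The labelled identities were compared with marker genes. Cdh1, which encodes E-cadherin, stood at 388 to 916 FPKM, a fragment count scaled by length and library, in the 11 sphere libraries, and the summed level of 8 mesenchyme markers was 0.33 to 1.73 FPKM there, against 4711 to 5686 FPKM in the 6 embryonic libraries and 165 to 323 FPKM in adult LG. Krt14, a marker named for these stem cells, was at 3.35 to 17.8 FPKM in the spheres. Adult LG held Pip, a secretory product, at 484 to 1241 FPKM. The acinar list held 4 markers, Aqp5, Bhlha15, Ltf and Pip, and 2 of them averaged at least 1 FPKM in adult LG. Their sum there was 491 to 1242 FPKM, nearly all of it Pip, and Bhlha15 was listed at 0 in all 20 libraries. Epcam and Krt8 were listed at 0 in all 20 libraries, and of 5333 genes over 10 FPKM in a passage 10 sphere library made with another gene list, 577 (10.8%) were listed at 0 in all 20, so a level at or near 0 here may not mean that the RNA was absent. Recovered reads numbered 6016447 to 9404330 per library. In adult LG the 10 most abundant genes took 53.3%, 51.5% and 25.6% of them in replicates 1, 2 and 3, while the ratio of reads to the library scale behind the deposited values was 2.49, 2.32 and 1.07, against 0.857 to 1.15 elsewhere. Adult replicate 3 therefore stood apart, and values without it are given for the genes whose adult level it sets.

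In the spheres, the members picked for day 14 were low at day 5 and day 7, and Cyp26a1 was above all of those values in each day 10 library. Cyp26a1, which clears retinoic acid, was listed at 0.0663 and 0 FPKM at day 5, 0, 0.289 and 0.252 FPKM at day 7, 0.637, 1.24 and 1.63 FPKM at day 10 and 4.37, 2.15 and 0.882 FPKM at day 14. The day 10 and day 14 libraries were all above the day 5 and day 7 libraries, while day 10 and day 14 overlapped. These values rest on 1 read in the 2 day 5 libraries, 8 reads at day 7, 52 reads at day 10 and 116 reads at day 14. Within replicate numbers 1, 2 and 3, the log2(FPKM + 1) of Cyp26a1 was higher at day 14 than at day 7 by 2.42, 1.29 and 0.59.

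Dhrs3, which returns retinaldehyde to retinol, was at 2.05 and 1.61 FPKM at day 5, 2.51, 0.699 and 2.06 FPKM at day 7, 8.38, 3.19 and 1.70 FPKM at day 10 and 6.59, 7.95 and 10.2 FPKM at day 14. All day 14 libraries lay above those of day 5 and day 7, and day 10 spanned the range between them, with replicate 1 as high as day 14 and replicate 3 as low as day 7. The mean was 4.69 times higher at day 14 than at day 7, and the differences in log2(FPKM + 1) within replicate numbers 1, 2 and 3 were 1.11, 2.40 and 1.87. The numbers did not rank alike for both genes: replicate 1 had the highest Cyp26a1 and the lowest Dhrs3 at day 14, and replicate 3 the reverse. Of the 4 members above the expression filter, a mean of 0.5 FPKM over the libraries compared, the day 14 libraries lay wholly above day 7 for Dhrs3 and Cyp26a1, the pair picked for it, and not for Rdh10 or Crabp2. Such a separation was seen for 8.26% of 15744 genes, and for 17.4% in either direction. As this contrast chose the members, nothing is read from the count. Aldh1a3, below the filter, also lay wholly above day 7 at day 14.

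**Figure D1:**
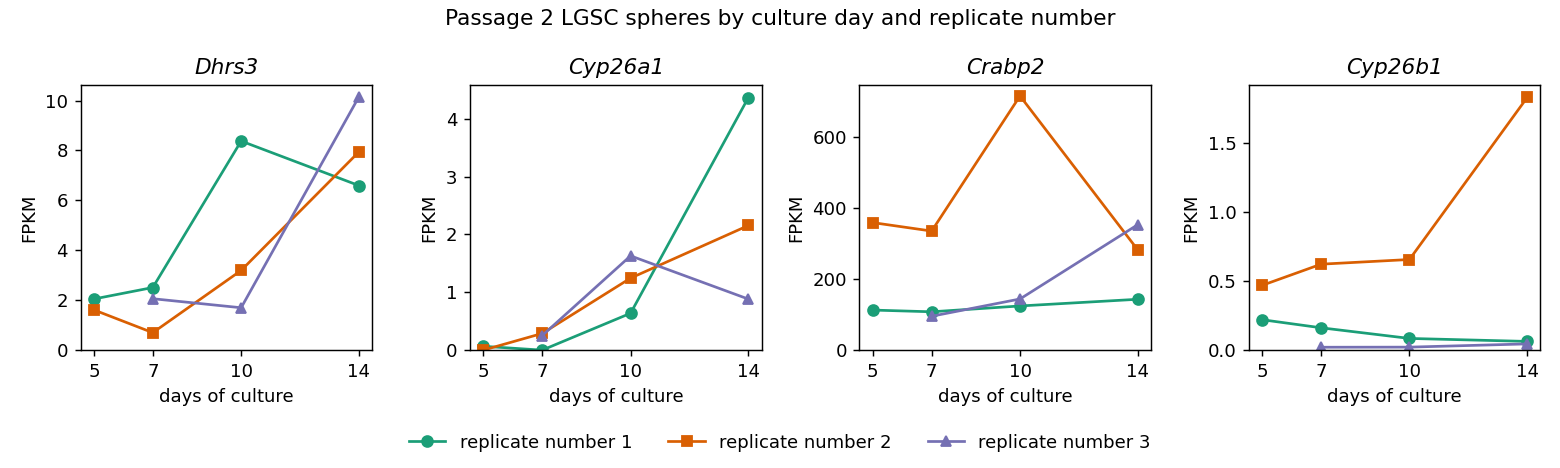
FPKM of Dhrs3, Cyp26a1, Crabp2 and Cyp26b1 in passage 2 LGSC spheres (vertical axes, FPKM) against days of culture (horizontal axes), each point a library and each line a replicate number; day 5 has no replicate 3. Dhrs3 and Cyp26a1 at day 14 lay above day 7 in each number, and Crabp2 and Cyp26b1 were highest in number 2 from day 5 to day 10.

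Apart from Aldh1a3, the other members did not separate day 14 from day 7. Rdh10, the first oxidation step, was the most abundant enzyme gene of the set in the spheres, with 45.8 and 29.5 FPKM at day 5, 84.8, 39.8 and 59.9 FPKM at day 7, 48.6, 43.8 and 94.6 FPKM at day 10 and 97.1, 56.3 and 50.6 FPKM at day 14. Neighbouring days overlapped, although each day 14 library was above both of day 5. Crabp2, the carrier of retinoic acid, was at 113 and 358 FPKM at day 5, 108, 334 and 95.2 FPKM at day 7, 124, 714 and 144 FPKM at day 10 and 143, 281 and 353 FPKM at day 14. Replicate 2 held 3.18, 3.30 and 5.33 times the mean of the other libraries of its day at day 5, day 7 and day 10, and 1.14 times at day 14.

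Cyp26b1, the other breakdown enzyme, showed the same split by replicate number rather than by day. Replicate 2 was at 0.468, 0.621, 0.655 and 1.83 FPKM at day 5, 7, 10 and 14, resting on 17, 26, 27 and 87 reads, whereas replicates 1 and 3 stood between 0.0209 and 0.220 FPKM with 1 to 10 reads. Replicate 2 was the highest library of its day for 40.9%, 40.6% and 36.9% of all genes above the filter at day 7, day 10 and day 14, against 31.2%, 32.6% and 33.7% for replicate 1 and 27.9%, 26.8% and 29.4% for replicate 3. Krt18, an epithelial keratin, stood at 139, 130.1, 176 and 152 FPKM in replicate 2 on the 4 days and at 689 to 1734 FPKM in every other sphere library.

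The retinaldehyde dehydrogenases were scarce in the passage 2 spheres. Aldh1a3 was at 0.175 to 0.906 FPKM, with 209 reads over the 11 libraries. Its 3 day 14 libraries, at 0.680, 0.438 and 0.834 FPKM, lay above the 3 day 7 libraries, at 0.351, 0.360 and 0.314 FPKM, and day 10 ranged across both. Aldh1a2 was listed at 0 in 9 of the 11 libraries and had 3 reads in all, and Aldh1a1 was listed at 0 in 7 of 11 and had 4 reads. Rarb, the receptor and target, had 13 reads over the 11 libraries and at most 0.0639 FPKM, and was thus near the limit of counting at all 4 days. A library with 0 reads of Rarb allows a level of up to 0.0840 FPKM, the value of 3 reads in the shallowest such sphere library. Cyp26a1 and Rarb, with their shared promoter pattern, had levels at day 14 of 2.47 ± 1.76 and 0.0437 ± 0.0214 FPKM (SD, n = 3).

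Day 10 was compared with day 5 in a fit that left out day 14 and included day 7. Of the 4 members that passed the filter of 0.5 FPKM, only Rdh10 and Crabp2 are read as tested. Neither was called with limma and Benjamini-Hochberg adjustment, where 0% of 15430 genes passed, although 1102 genes had an unadjusted p under 0.05. limma-voom on the recovered reads called 0 genes as well, or 29 with the replicate number as a block. The difference in log2(FPKM + 1) was 0.66 for Rdh10 (95% confidence interval -0.33 to 1.65, adjusted p = 0.760, limma) and 0.22 for Crabp2 (-1.92 to 2.35, adjusted p = 0.967, limma). Dhrs3 and Cyp26a1 were picked in part for their low values before day 14, so their day 5 and day 10 levels stand as a description. Cyp26a1 passed the filter through its day 10 libraries, which did not overlap with day 5, and groups did not overlap for 20.7% of genes.

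**Figure D2:**
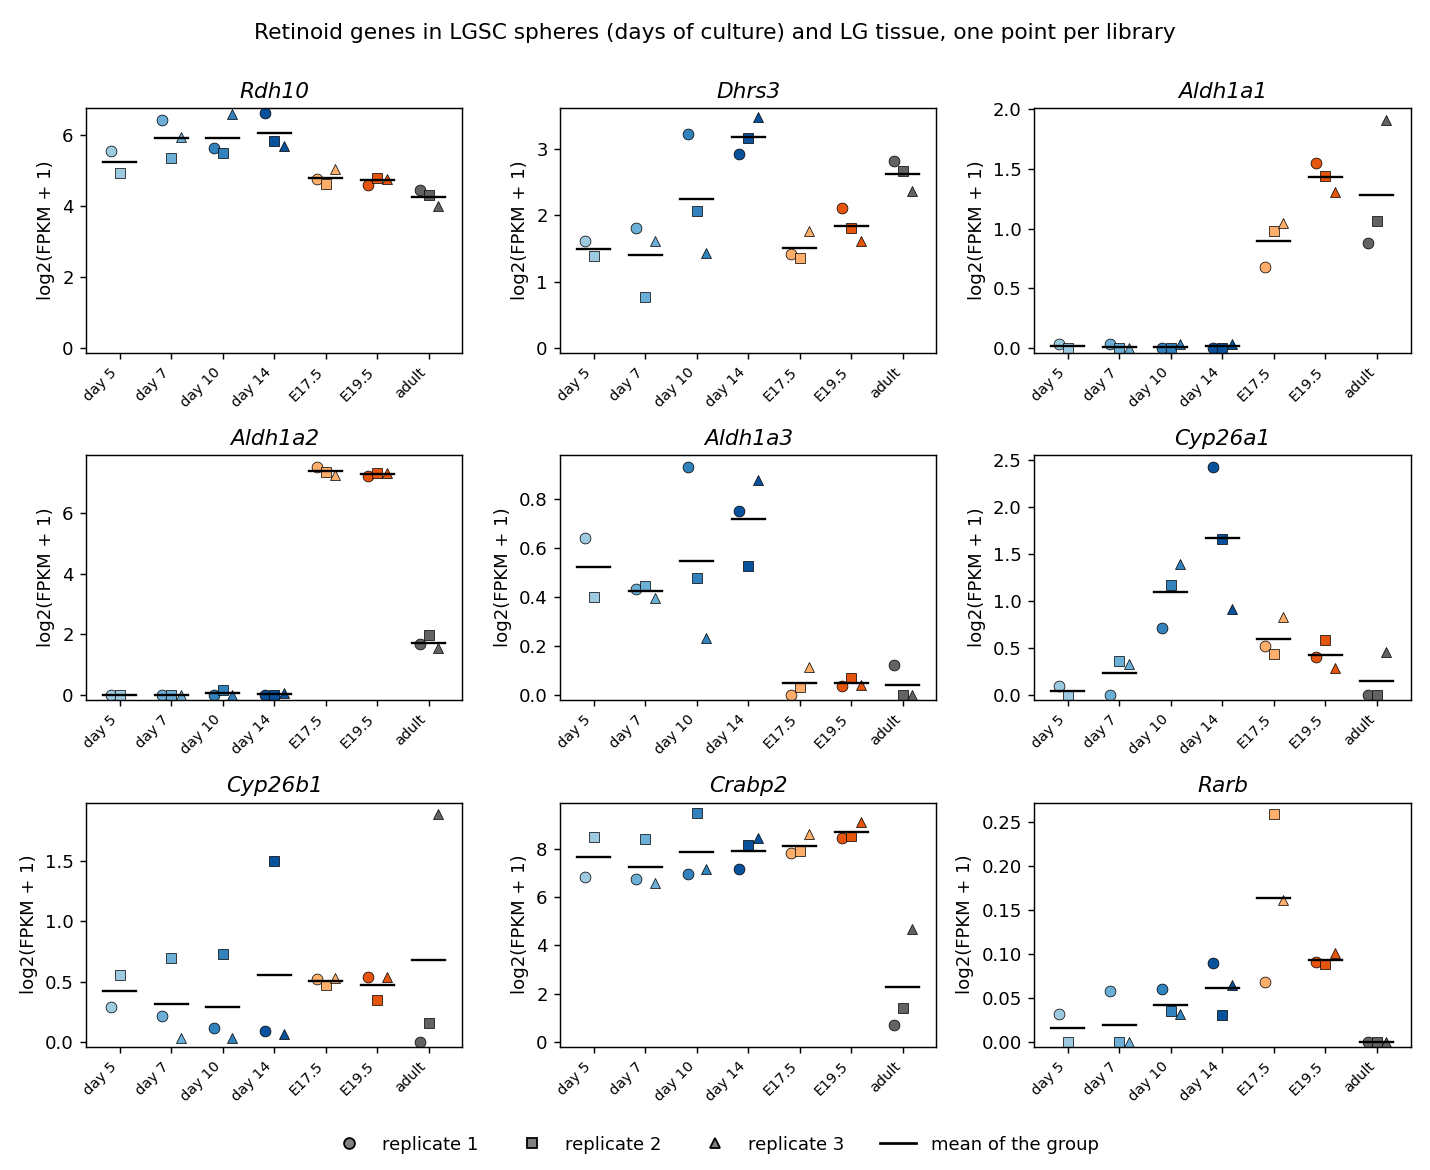
log2(FPKM + 1) of the 9 retinoid genes (vertical axes, each panel with its own range) in the 4 culture days of LGSC spheres and in E17.5, E19.5 and adult LG (horizontal axes), 1 point per library with the replicate number as its shape and a line at the group mean. Aldh1a2 was at least 149.6 FPKM in each of the 6 embryonic libraries and at most 0.115 FPKM in the spheres, and Crabp2 was low in adult LG only.

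Between embryonic and adult LG, Aldh1a2 and Crabp2 were far higher in the embryo, Rdh10 was slightly higher and Dhrs3 was lower. Of the 9 members, 6 passed the filter over the 9 tissue libraries and entered 1 limma fit. Cyp26b1, among the 6, passed through adult replicate 3 alone and is given as a description. At E17.5, 3 of the 6 were called higher than in adult LG and 1 lower, beside 54.0% of 18578 genes called in either direction, 29.1% higher and 24.9% lower. At E19.5, again 3 members were higher and 1 lower, beside 54.2% of genes called, 30.3% higher and 23.9% lower. A share of 4 of 6, with Cyp26b1 counted in the 6, is not far from these backgrounds, and both comparisons use the same adult libraries.

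Aldh1a2, the main source of retinoic acid in many embryonic organs, was at 185, 164 and 155 FPKM at E17.5 and 149.6, 161 and 160.5 FPKM at E19.5, against 2.20, 2.93 and 1.91 FPKM in adult LG. No embryonic library came near an adult one. The difference in log2(FPKM + 1) was 5.67 ± 0.15 (SE, adjusted p = 1.0e-07) at E17.5 and 5.57 ± 0.15 (adjusted p = 1.1e-07) at E19.5, by limma. The mesenchyme markers moved the same way: Col1a1 ranged from 1844 to 2228 FPKM in the embryonic libraries, 40.3 to 57.1 FPKM in adult LG and 0.26 to 0.83 FPKM in the spheres, and Lum and Dcn were listed at 0 in all day 7 spheres. The part of cell composition in the level of Aldh1a2 was not tested, and in whole tissue fewer cells of a type and less RNA per cell cannot be told apart.

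**Figure D3:**
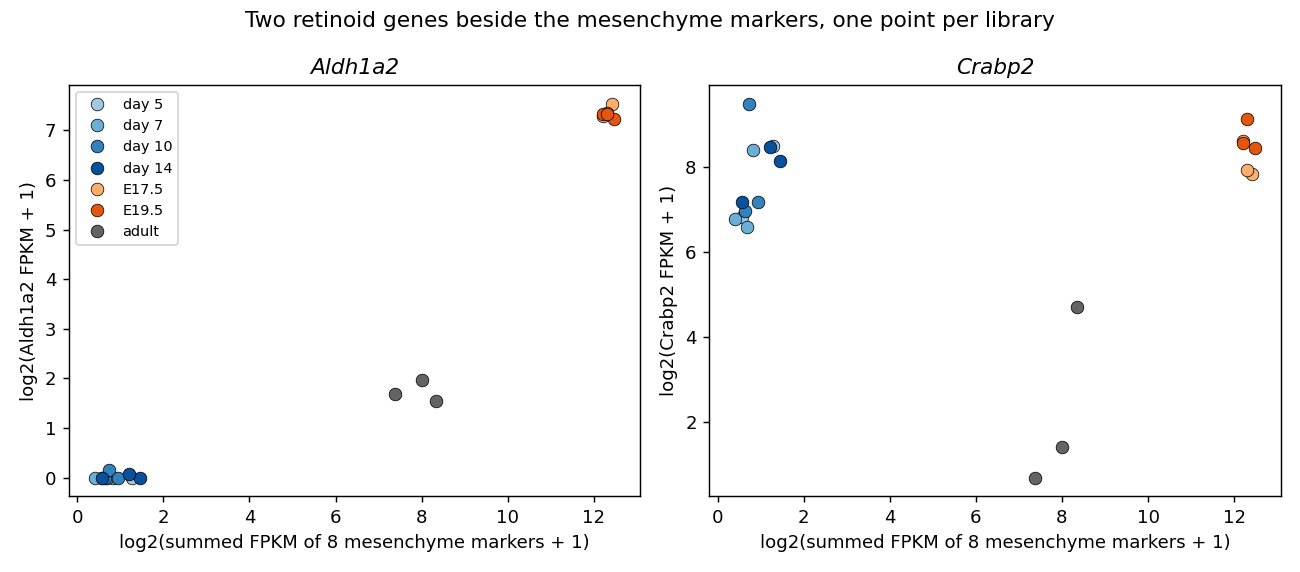
log2(FPKM + 1) of Aldh1a2 (left) and Crabp2 (right) on the vertical axes against log2 of the summed FPKM of 8 mesenchyme markers + 1 on the horizontal axes, 1 point per library coloured by group. The libraries fall into 3 clusters on the horizontal axis, spheres, adult LG and embryonic LG. Aldh1a2 was low in spheres, intermediate in adult LG and high in embryonic LG, whereas Crabp2 was high in both spheres and embryonic LG.

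Crabp2 was higher in embryonic than in adult LG, as the mesenchyme markers were. It was also at 95.2 to 714 FPKM in the spheres, where these markers were low. The part of cell composition in its level was not tested. Crabp2 was at 227, 241 and 391 FPKM at E17.5, 346, 374 and 560.1 FPKM at E19.5 and 0.627, 1.67 and 25.0 FPKM in adult LG, where replicate 3 was the exception. The difference from adult LG was 5.85 ± 0.88 (SE, adjusted p = 0.000647) at E17.5 and 6.43 ± 0.88 (adjusted p = 0.000412) at E19.5, by limma. Without adult replicate 3 the adult mean fell from 9.10 to 1.15 FPKM and the differences were 7.06 and 7.65.

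Rdh10 was at 26.1, 23.3 and 31.6 FPKM at E17.5, 23.1, 26.7 and 26.1 FPKM at E19.5 and 20.7, 18.7 and 15.1 FPKM in adult LG, so that neither stage overlapped with the adult, as was the case for 59.5% of genes in the earlier comparison and 58.8% in the later. The embryonic level was higher by 0.55 ± 0.17 (SE, adjusted p = 0.0232) at E17.5 and 0.47 ± 0.17 (adjusted p = 0.0438) at E19.5, by limma. At E17.5 the call was lost without replicate 1 or 3 of E17.5 (adjusted p = 0.0593 and 0.0897), and at E19.5 it was lost in 5 of 6 fits that left out 1 library, all but the one without adult replicate 1, with adjusted p up to 0.129.

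Dhrs3 was at 1.67, 1.56 and 2.39 FPKM at E17.5, 3.32, 2.51 and 2.05 FPKM at E19.5 and 6.09, 5.39 and 4.17 FPKM in adult LG, where each library was above each embryonic one. The difference from adult LG was -1.11 ± 0.19 (SE, adjusted p = 0.00146) at E17.5 and -0.78 ± 0.19 (adjusted p = 0.00915) at E19.5, by limma. When each library was scaled to its own recovered reads, the differences were -0.41 (adjusted p = 0.161) and -0.15 (adjusted p = 0.602), the calls were lost, and adult LG, at 2.32 to 3.89, overlapped with E17.5, at up to 2.43, and with E19.5, at up to 3.25. That scaling moved the median difference of all genes from 0.05 to 0.58 at E17.5 and from 0.09 to 0.53 at E19.5. Relative to these medians, Dhrs3 stood at -1.17 and -0.87 on the deposited scale and at -0.99 and -0.68 on the other. Rdh10 differed from adult LG by 1.38 and 1.19 on the recovered-read scale and kept its calls there.

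The remaining members were not called against adult LG, did not pass the filter or passed it through adult replicate 3 alone. Aldh1a1, a dehydrogenase found in many adult epithelia, was at 0.599, 0.967 and 1.06 FPKM at E17.5, 1.92, 1.71 and 1.47 FPKM at E19.5 and 0.840, 1.09 and 2.76 FPKM in adult LG. The difference from adult LG was -0.38 (95% confidence interval -0.98 to 0.21) at E17.5 and 0.15 (-0.45 to 0.74) at E19.5, neither called by limma. Without adult replicate 3, the highest library, the E19.5 difference was 0.46 and was called (adjusted p = 0.0329, limma). The summed level of 5 endothelial markers was also highest in that replicate, at 61.9, 81.8 and 182 FPKM in adult replicates 1, 2 and 3, and its part in the level of Aldh1a1 was not tested.

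Cyp26b1 was at 0.388 to 0.444 FPKM at E17.5, 0.270 to 0.452 FPKM at E19.5 and 0, 0.118 and 2.69 FPKM in adult LG, so that it passed the filter only through adult replicate 3. Its differences from adult LG, -0.18 (-1.16 to 0.81) and -0.21 (-1.20 to 0.78), were not called. Without that replicate the adult mean was 0.0589 FPKM, below each embryonic library. Cyp26a1, Aldh1a3 and Rarb did not pass the filter. Cyp26a1 was at 0.351 to 0.775 FPKM at E17.5 and 0.216 to 0.502 FPKM at E19.5, with 3 to 11 reads a library, and was listed at 0, 0 and 0.370 FPKM in adult LG. Rarb had 17 reads at E17.5, 9 at E19.5 and 0 in adult LG. With 3 reads over the adult group taken as the limit in place of 0, its level at E17.5 comes to at least 2.94 times that of adult LG. The exact 95% lower bound, which counts the error of the E17.5 reads too, was 2.14. Aldh1a3 had 4 reads at each embryonic stage and 1 in adult LG.

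Between E19.5 and E17.5, none of the 6 members, with Cyp26b1 as a description, was called, beside 1.74% of all genes, 1.11% higher and 0.624% lower. The differences in log2(FPKM + 1) were -0.09 (95% confidence interval -0.44 to 0.25) for Aldh1a2, -0.08 (-0.47 to 0.30) for Rdh10, 0.33 (-0.11 to 0.78) for Dhrs3, 0.53 (-0.06 to 1.13) for Aldh1a1 and 0.58 (-1.43 to 2.60) for Crabp2. For Cyp26b1 the difference was -0.03, given without a test. The intervals of Aldh1a2 and Rdh10 were the narrowest, and that of Crabp2 left room for a change in either direction. Aldh1a1 was the only member whose 3 E19.5 libraries all lay above the 3 of E17.5, and groups did not overlap for 35.1% of all genes.

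Day 7 spheres were compared with the adult LG from which such cultures are grown. Rdh10 and Crabp2 were higher in the spheres, while Aldh1a1 and Aldh1a2 had 1 and 0 reads there. Dhrs3 and Cyp26a1 had been picked for their low values before day 14 and were not tested here. Aldh1a1 and Aldh1a2 passed the filter through adult LG alone, so they are given by their reads. Of the other 3 members that passed, Cyp26b1 did so through adult replicate 3 and is a description. Rdh10 and Crabp2 were called higher, beside 35.2% of 17698 genes called in either direction, 14.2% higher and 21.1% lower. Rdh10 differed by 1.65 ± 0.31 (SE, adjusted p = 0.00871) and Crabp2 by 4.97 ± 1.08 (adjusted p = 0.0138), by limma. No sphere library of day 7 overlapped with adult LG for either gene, and groups did not overlap for 52.4% of all genes. For Crabp2 the call was lost without adult replicate 2 (adjusted p = 0.0528), and the difference was 6.19 without adult replicate 3.

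Aldh1a2 was listed at 0 in each day 7 library. With 3 reads over the day 7 group taken as the limit in place of 0, its level in adult LG comes to at least 43.4 times that of the spheres. The exact 95% lower bound, which counts the error of the adult reads too, was 34.3. Without adult replicate 3 these values were 51.3 and 39.4. They use the deposited library scale and were not computed on the recovered-read scale. On that scale Aldh1a2 in adult LG was at 0.881, 1.26 and 1.79, against 2.20, 2.93 and 1.91 FPKM as deposited. Aldh1a1 had 1 read in the day 7 libraries and 131 in adult LG, a pooled ratio of 258 with an exact 95% interval from 45.5 to 10274.6 for counting error only. Of the adult reads, 104 were in replicate 3, and without it the ratio was 126 (20.8 to 5155). These ratios use the deposited library scale too. On the recovered-read scale Aldh1a1 in adult LG was at 0.337, 0.469 and 2.58, against 0.840, 1.09 and 2.76 FPKM as deposited. Endothelial markers, summed over 5 genes, were at 0.0229 to 0.357 FPKM in day 7 spheres and 61.9 to 182 FPKM in adult LG, and the part of the cell types lost in culture was not tested. Cyp26b1, which passed the filter through adult replicate 3, differed by -0.37, a description with no test. For Dhrs3, adult LG at 5.21 ± 0.974 FPKM lay above day 7 spheres at 1.76 ± 0.943 FPKM and below day 14 spheres at 8.23 ± 1.797 FPKM (SD, n = 3 each), without overlap between any pair of the 3 groups. When scaled to recovered reads, adult LG at 2.44, 2.32 and 3.89 and day 7 at 2.89, 0.700 and 2.30 overlapped, and day 14 at 7.26, 9.24 and 11.4 stayed above both.

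**Figure D4:**
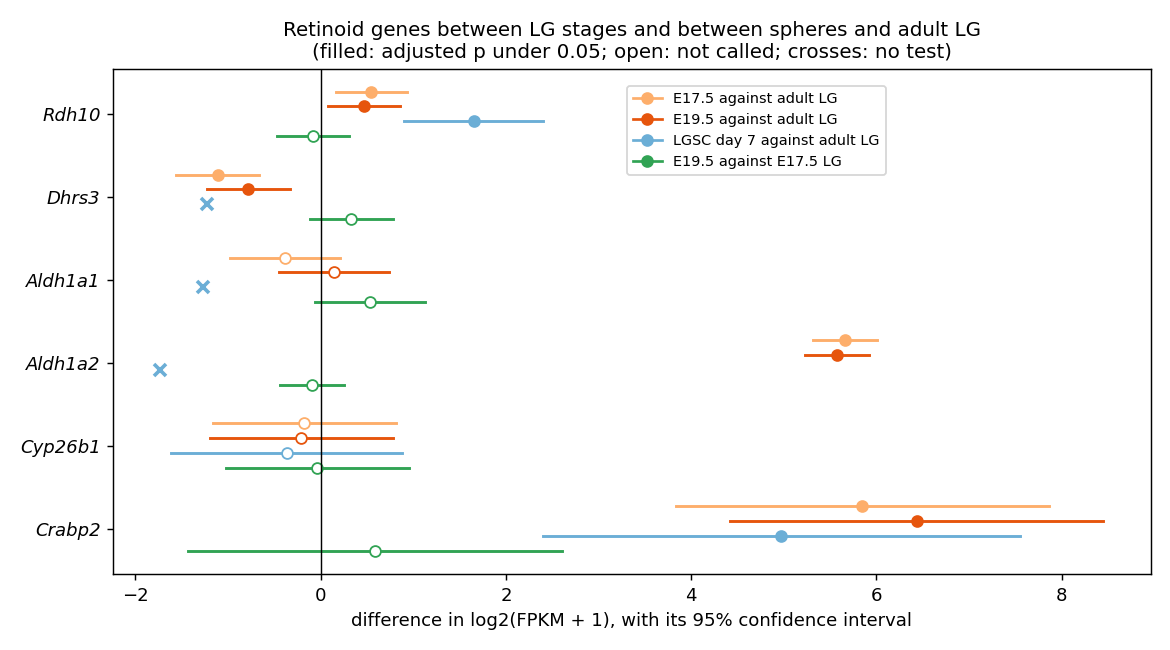
Difference in log2(FPKM + 1) (horizontal axis) of 6 retinoid genes (vertical axis) in 4 comparisons, with 95% confidence intervals from limma; filled points had an adjusted p under 0.05, open points were not called, and crosses, for Dhrs3, Aldh1a1 and Aldh1a2 in day 7 spheres, are differences given without a test. Cyp26b1, drawn with open points and intervals, passed the filter through adult replicate 3 alone and is a description. Aldh1a2 was 5.67 and 5.57 higher in embryonic than in adult LG, while no member was called between E19.5 and E17.5.

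Ordered by group mean, the members had different profiles. Rdh10 ran from day 14, day 10, day 7 and day 5 spheres to E17.5, E19.5 and adult LG, with each neighbour overlapping the next down to E19.5, which lay above adult LG. Aldh1a2 ran from E17.5 and E19.5, which overlapped, to adult LG and then the spheres, with a gap on either side of adult LG. Crabp2 ran from E19.5, day 10, E17.5, day 14, day 5 and day 7 to adult LG. Each neighbour overlapped the next down to day 7, which lay above adult LG, while E19.5 and day 7 did not overlap. Dhrs3 was highest at day 14, clear of adult LG on either scale, and the other groups overlapped with their neighbours. Cyp26a1 and Cyp26b1 had no gap between any neighbouring groups.

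Of 39 other genes of the retinoid pathway, 21 were tested in tissue. At E17.5, 11 were higher and 5 lower than in adult LG with a median difference of 0.53 (0.05 over all genes), and at E19.5, 10 were higher and 4 lower with a median of 0.49 (0.09 over all genes). The shares of all genes called, 54.0% and 54.2%, stand beside these 16 and 14 of 21, as do 29.1% and 30.3% for higher calls. In 6 of the 16 and 5 of the 14, one group averaged under 0.5 FPKM, so that they passed the filter through the other group: Rbp4, Rxrg and Rdh12 through embryonic LG, and Bco1, Rdh16 and, at E17.5, Ttr through adult LG. The counts are therefore descriptions. With scaling to recovered reads, 14 and then 13 genes were higher at the successive stages while 4 and then 3 were lower, and no called gene turned its direction. On that scale, of 17432 genes, 8024 were called higher and 2082 lower at E17.5. At E19.5, 7616 were called higher and 2042 lower. Among the receptors, Rara stood at 5.67 to 5.95 FPKM at E17.5 and 6.34 to 6.69 FPKM at E19.5 against 1.61 to 2.58 FPKM in adult LG, with differences of 1.11 (adjusted p = 0.00029, limma) and 1.25 (adjusted p = 0.000165, limma). Rxrg was higher too, by 1.44 and 0.64, Rarg (0.42 and 0.11) and Rxrb (-0.02 and 0.20) were not called, and Rxra did not pass the filter. On the recovered-read scale Rxrb was called higher by 0.82 (adjusted p = 0.0208, limma) and 0.93 (adjusted p = 0.0126, limma), with the direction turned at E17.5. The median difference of all genes on that scale was 0.58 at E17.5 and 0.53 at E19.5. Rarg was called at E17.5 on that scale (0.76, adjusted p = 0.0238, limma), with median ratio scaling (0.45, adjusted p = 0.0437, limma), with limma-voom (1.58, adjusted p = 0.0186) and without adult replicate 3 (0.57, adjusted p = 0.00726, limma), and at E19.5 with none of these. In the same order, the medians of all genes at E17.5 were 0.58, 0.09, 0.94 and 0.09. In uptake and storage, Rbp4, which carries retinol in blood, was higher by 2.25 and 2.49, and Bco1, which cleaves carotene, and Ttr, which binds the retinol carrier, were lower, with differences of -3.27 and -3.26 for Bco1 and -2.82 and -2.64 for Ttr. Bco1 was at 24.8 and 23.8 FPKM in adult replicates 1 and 2 but 1.19 FPKM in replicate 3, and Ttr at 12.6, 26.7 and 1.94 FPKM in the 3. Without replicate 3 the differences were -4.45 and -4.43 for Bco1 and -3.73 and -3.55 for Ttr. Among binding proteins Crabp1 was higher by 1.52 and 1.31.

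Among the other dehydrogenases and reductases, Rdh11 was higher in embryonic LG by 2.31 and 2.42 and Rdh12 by 1.03 and 1.04, and Adh1, which oxidises retinol among other alcohols, and Rdh16 were lower. Adh1 was at 468 to 1122 FPKM in adult LG and 43.3 to 81.5 FPKM at E17.5, and with scaling to recovered reads its difference at E19.5 moved from -2.09 to -1.31 and lost its call. Adh7 was higher at E17.5 by 1.23 and Rbp7, a retinol-binding protein, differed there by -1.90, or by -1.05 with the call lost on the recovered-read scale. Rarres2, named as a retinoic acid receptor responder, was higher by 2.40 and 2.96. Between E19.5 and E17.5, 1 of the 21 was called, beside 1.74% of all genes, namely Rbp7, which was higher at E19.5 by 1.58 (adjusted p = 0.0289, limma), a call that was lost on the recovered-read scale (adjusted p = 0.233).

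In day 7 spheres against adult LG, 19 of the 39 genes were tested, 2 were higher and 7 lower, with a median difference of -0.35 (-0.08 over all genes), and 14.2% and 21.1% of all genes were called in these directions. Of the lower ones, Adh1, Ttr, Bco1, Rarres2 and Rdh16 averaged under 0.5 FPKM in the spheres and passed the filter through adult LG alone, so this count is a description too. On the recovered-read scale 5 were higher and 7 lower, and the median was 0.22 (0.53 over all genes). Of 16514 genes on that scale, 5037 were called higher and 1915 lower. Without adult replicate 3, 4 were higher and 8 lower, beside 3254 higher and 4881 lower of 17282 genes. On the deposited scale the higher ones were Rdh11, by 2.43, and Fabp5, a fatty acid binding protein that can also carry retinoic acid, by 3.15. Adh1, at 0 to 0.150 FPKM in the day 7 spheres, differed by -9.37, Crabp1 by -5.83, Rbp7 by -4.26, Ttr by -3.37, Bco1 by -3.22, Rarres2 by -3.12 and Rdh16 by -2.72. Without adult replicate 3, Bco1 and Ttr differed by -4.40 and -4.28. Rara (0.60), Rarg (0.53) and Rxrb (-0.35) were not called. Rara was called on the recovered-read scale (1.18, adjusted p = 0.0319, limma) and without adult replicate 3 (0.69, adjusted p = 0.0432, limma), as was Rarg (0.93 and 0.67, adjusted p = 0.0440 and 0.0215, limma), and both were called with limma-voom. The median of all genes was 0.53 on the recovered-read scale, -0.07 without adult replicate 3 and 0.81 with limma-voom. Rxrb turned to 0.58 on the recovered-read scale, not called (adjusted p = 0.160, limma). Between day 10 and day 5, 0 of 14 tested genes were called by limma.

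The genes whose log2(FPKM + 1) was most correlated with each member over the 20 libraries were looked up among 13690 genes. The groups are shared by all genes, so these Pearson values describe profiles and carry no test. For Aldh1a2 they were Igf1, Capn6 and Lrrc17 (r = 0.998, 0.997 and 0.997), and for Aldh1a1 Pde8b, Adgrf5 and Myct1 (0.989, 0.985 and 0.982). For Crabp2 they were Nxn, Rdh11 and Aph1b (0.954, 0.949 and 0.944), and for Rdh10 Gm44751, Slc44a1 and Fetub (0.912, 0.911 and 0.906). Cyp26a1 had weaker matches, Mir7051, Sp5 and Ccl20 (0.743, 0.723 and 0.723), as did Dhrs3 with Apobr (0.827) and assembled loci without a symbol. Over the 11 sphere libraries the closest to Cyp26a1 were Pbld2, Slc28a3, 1500002C15Rik, Ccdc43 and Isoc2b (0.917 to 0.872), and the closest to Dhrs3 with a symbol was Fbxo36 (0.951).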

How the data were processed

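RNA-seq of LGSC spheres and LG was analysed in 21 of 24 samples. Per the methods and the submitters' processing notes, NEBNext libraries of poly-A RNA were sequenced as paired ends, bases were called with CASAVA 1.8, reads were aligned with HISAT2 2.0.5 and counted with featureCounts 1.5.0-p3, and the build was NCBIM37. The authors deposited 1 table per library, whose values were read as FPKM from their size and their steps. Reads were recovered from these steps, and were whole within 0.01 for 92.6% to 93.6% of genes with up to 1000 reads. They rest on gene lengths from GENCODE M21 or, for 8736 genes, on lengths taken from the steps, for which whole reads follow by construction. Symbols were matched for 52403 of 52636 identifiers.

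limma 3.58.1 (R 4.3.3; lmFit and eBayes with trend, two-sided) was run on log2(FPKM + 1) for genes averaging 0.5 FPKM or more among the libraries fitted, and p-values were adjusted by Benjamini-Hochberg over all genes at a threshold of 0.05. A difference on this scale understates the change of low genes. The tissue fit held 9 libraries, the fit of spheres against adult LG 6, and the culture fit those of days 5, 7 and 10. The tables hold no counts, so recovered reads entered tests only as an alternative (limma-voom). The fits were tested on simulated data. Intervals of read ratios were exact (95%), the limit of a count of 0 was 3 reads, and both cover counting error only. The passage 10 library was made with another gene list and entered no test. Alternatives were a pseudocount of 0.1, no filter or a filter of 1 FPKM, scaling by median ratios or to recovered reads, limma-voom, the replicate number as a block, and each replicate left out. Same-numbered sphere libraries of day 14 and day 7 deviated together (correlations of 0.255 to 0.600 in the 3 pairs, against a mean of -0.172 for other pairs), so differences within numbers are given. The rule asks for 3 pairs, each over 0.1. Day 10 and day 5 had 2 pairs, both over it, and the tissue groups and day 7 spheres against adult LG had pairs under it. The design also listed Dhrs3 and Cyp26a1 for the test of day 10 against day 5, and Aldh1a1 and Aldh1a2 for that of spheres against adult LG. Cyp26b1 entered the tissue fit and that of spheres against adult LG. All of these are given as descriptions because the choice of members or the filter bears on them.

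All members were named. Likest genes were the 3 with the highest correlation over 20 libraries for members averaging 0.5 FPKM or more, and also, for Dhrs3 and Cyp26a1, the 5 highest over the spheres. Other pathway genes were named where they were called with a log2 difference of at least 1, and receptors in any case. The members and lists were chosen with earlier results of these data known. Plots were drawn with Python 3.11.15 and matplotlib 3.10.9.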

Additional observations from a re-analysis of the deposited data

Results flagged for a closer look

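In the single passage 10 library of day 7 spheres, which entered no comparison, 3 members were above their highest value in the other 20 libraries. How many of all genes were so was not counted, and nothing is read from this number. Aldh1a3, the retinaldehyde dehydrogenase that was scarce in passage 2 spheres, was at 83.0 FPKM, against at most 0.906 FPKM elsewhere. Dhrs3 was at 17.53 FPKM, against a mean of 1.76 FPKM in passage 2 spheres of the same day and 10.2 FPKM in the highest other library. Aldh1a1 was at 5.53 FPKM, against at most 2.76 FPKM elsewhere. Cyp26a1 and Aldh1a2 were listed at 0 in this library, and Crabp2 (155 FPKM) and Rdh10 (15.4 FPKM) were at 0.864 and 0.250 times the day 7 mean. The library was made with another gene list, under which 577 genes over 10 FPKM were at 0 in all 20 others, so passage and gene list cannot be told apart.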

How the results depend on the processing

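The number of members called stayed between 3 and 5 in the comparisons with adult LG under each alternative run. It stayed at 0 between E19.5 and E17.5 and between day 10 and day 5. These counts and the 361 values that follow include Aldh1a1 and Aldh1a2 in day 7 spheres, which passed the filter through adult LG alone. They also include Dhrs3 and Cyp26a1 between day 10 and day 5, and Cyp26b1 in tissue and in day 7 spheres. These genes are descriptions in those comparisons, so no stability is read from their part. Of 361 values of single members under an alternative, 325 kept direction and side of the threshold, 21 lost a call, 1 gained one and 14 changed sign. None that changed sign was called with its sign changed: Cyp26b1 against adult LG with a pseudocount of 0.1 (0.40 at E17.5, 0.29 at E19.5), with limma-voom on recovered reads (1.59, 1.33 and, in day 7 spheres, 0.19) and with the block in that fit (0.98 and 0.72), Aldh1a1 at E17.5 with limma-voom (0.18) and with the block added (0.12), and, with 1 library left out, Aldh1a1 at E19.5 (-0.055 to 0.46), Rdh10 (-0.18 to 0.034) and Cyp26b1 (-0.067 to 0.030) between E19.5 and E17.5, and Crabp2 between day 10 and day 5 (-0.61 to 1.05). The cause was not tested.

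Scaling to recovered reads moved the share of higher calls among all genes from 53.8% to 79.4% at E17.5, from 55.9% to 78.9% at E19.5 and from 40.2% to 72.5% in day 7 spheres. The genes called between E19.5 and E17.5 numbered 323, and 162 with a pseudocount of 0.1, 180 with scaling to recovered reads, 56 with limma-voom, 100 with the replicate block, 12 with limma-voom and the replicate block, and 50 to 197 with 1 library left out. Between day 10 and day 5 they numbered 0, and 1 with a pseudocount of 0.1, 4 without a filter, 29 with limma-voom and the replicate block, and 0 to 6 with 1 library left out. In day 7 spheres against adult LG 6238 genes were called, and 3770 to 8135 with 1 library left out. The replicate block, which the tissue libraries did not support as a pairing (same-number correlations of -0.079 to 0.062), ended the calls of Rdh10 at E17.5 (adjusted p = 0.0563, limma) and E19.5 (adjusted p = 0.0909, limma) and no other call of a member. Between day 10 and day 5, where 2 pairs correlated (0.434 and 0.450), it called neither Rdh10 nor Crabp2. limma-voom with the block, the alternatives for the other pathway genes and the read ratios without adult replicate 3 were added after seeing the data. Depth limits Rarb, Cyp26a1, Cyp26b1, Aldh1a3 and Aldh1a1, which rest on at most 110 reads in any of the 20 libraries.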

Other observations

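Tgm2, a transglutaminase gene known to be induced by retinoic acid, is a response gene of the pathway list that was singled out after its values were seen. It was at 15.4 and 2.62 FPKM at day 5, 44.6, 3.25 and 15.7 FPKM at day 7, 77.5, 8.40 and 29.4 FPKM at day 10 and 110, 53.4 and 171 FPKM at day 14. Each replicate number was highest at day 14, and replicate 2 was the lowest of each day. How many of all genes were highest at day 14 in each number was not counted. Of the 9 response genes listed, Tgm2 was the 1 that passed the filter between day 10 and day 5. It was not called there (1.87, adjusted p = 0.761, limma). Rarres2, another of the 9, was at most 0.0841 FPKM in the spheres. Whether Tgm2 answered to retinoic acid was not tested. Of its mean in adult LG, 45.5 FPKM, replicate 3 held the most with 88.2 FPKM.

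Rdh12, Adh7 and Fabp5, which also handle retinoids, were highest in replicate 2 of the spheres on each day, as Cyp26b1 was. Crabp2 was so up to day 10 only, with 281 FPKM at day 14 against 353 FPKM in replicate 3. These genes were likewise chosen after their values were seen, and how many other pathway genes did the same was not counted. Replicate 2 was highest for 40.9%, 40.6% and 36.9% of all genes above the filter at day 7, 10 and 14. The split is therefore not read as a trait of retinoid genes. Rdh12, a retinaldehyde reductase, was at 11.2, 19.7, 30.2 and 5.34 FPKM in replicate 2 at day 5, 7, 10 and 14, and at most 0.852 FPKM in any other sphere library. Adh7, a retinol-oxidising alcohol dehydrogenase, was at 48.7, 46.7, 22.7 and 19.9 FPKM in replicate 2 and at most 3.45 FPKM in the others. Fabp5 was at 36.1, 49.5, 123 and 37.0 FPKM in replicate 2 and 4.88 to 21.9 FPKM in the others. Rxrg, Rbp4 and Ttr were listed at 0 in all 11 sphere libraries.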
